A study of Mus musculus with 20 samples.

Results

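The 10 neutrophil granule genes described here, whose products fill the granules or the cytosol of these cells, were measured in the frontal pole of stressed mice. They were S100a8, S100a9, Camp, Ltf, Ngp, Lcn2, Hp, Mmp8, Mpo and Elane. Members were found by gene name, and every non-control probe carrying 1 of these 10 names was kept, which gave 12 of the 39429 probes of the array and 10 of its 30210 gene names. Camp and Mpo have 2 probes each and the other 8 genes have 1. Total RNA came from a frontal cortical slice of Swiss–Webster male mice that were 12 weeks old when they were moved to single cages and habituated. Stressed mice were intruders in cages of group-housed males, and control mice were brothers that stayed undisturbed. The acute group had a single encounter, the others had 8 days of encounters, 13 days of encounters, or 13 days followed by 5 days without stress (recovery), and each time point had control pools of its own. A pool joined equal amounts of RNA from 3 mice, and each time point had 3 stress pools, each hybridised together with its control pool on a dual-colour array, and 20 arrays of the 12 pool pairs were analysed. Pools 2 and 3 of every time point enter with an array with stress in Cy5 and its dye swap, whereas pool 1 enters with the former alone. The methods describe a dye swap for every array, and those of pool 1 are not analysed here. The slide and the pool number go together, since each slide carries 1 array of every time point. The scan day follows the pool number too, with pools 1 and 2 scanned on day 1 and pool 3 on day 2. The labels call the tissue prefrontal cortex, and all 8 neuron markers searched, Syt1 and Slc17a7 among them, were well above background in both channels on all 20 arrays.

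Neutrophils load their granules in sequence while they mature in the bone marrow. Primary (azurophil) granules are filled at the promyelocyte stage with myeloperoxidase and serine proteases, and secondary and tertiary granules are filled later with lactoferrin, cathelicidin and metalloproteinases, while the calprotectin subunits S100A8 and S100A9 make up much of the cytosolic protein of the mature cell. Granule transcripts are most abundant in marrow precursors, and blood neutrophils retain calprotectin transcripts. Healthy brain tissue holds few neutrophils. Lcn2 and Hp are also made by other cells, Lcn2 by reactive astrocytes and Hp by the liver and other tissues. In bulk RNA, fewer cells of a type and less RNA per cell cannot be told apart.

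The probes are shown because each value below is the signal of a single 60-base or shorter oligonucleotide, and because near-identical neighbours can share signal. Positions are those of the scanner tables (mm9). The names are those of the array design, and 11 of the 12 probe accessions matched the RefSeq table (GRCm38.p6). Exon boundaries of mm9 were not used here. The S100a8 probe (chr3:90473778-90473837, plus strand) and the Ltf probe (chr9:110942873-110942932, plus strand) read as follows, with no base singled out by capitals.
S100a8: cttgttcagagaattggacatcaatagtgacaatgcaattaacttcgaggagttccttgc
Ltf: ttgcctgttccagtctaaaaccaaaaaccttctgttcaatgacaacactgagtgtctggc
The S100a9 probe lies at chr3:90496573-90496632 on the minus strand. It is shown by its first 30 bases, since this gene had the widest range of ratios.
S100a9: gtctaaagggaatggcttactcaatggcct
The Camp probes, A_55_P2039699 (chr9:109749911-109749970) and A_55_P2158102 (chr9:109749901-109749950), both on the minus strand, overlap by 50 bases, of which 48 are identical. Their values are therefore not independent readings of Camp. The differing bases stand in capitals, A6G and T10C, with positions counted from base 1 of A_55_P2158102.
Camp A_55_P2039699: cagccAgagTagtaggcctgccttggcctg
Camp A_55_P2158102: cagccGgagCagtaggcctgccttggcctg
The Mpo probes do not overlap. A_55_P1995537 lies at chr11:87617840-87617899 and A_55_P2066505 at chr11:87615121-87615180, both on the plus strand, and only the former was well above background on all arrays.
Mpo A_55_P1995537: gaaggacggaggccattggccttcctgtgc
Mpo A_55_P2066505: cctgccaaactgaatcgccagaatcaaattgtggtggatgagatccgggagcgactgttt
The remaining probes were those of Ngp (chr9:110324266-110324814, a span of 549 bases for a 60-base probe, plus strand), Lcn2 (chr2:32240199-32240258, minus strand), Hp (chr8:112099045-112099104, minus strand), Mmp8 (chr9:7568238-7568297, plus strand) and Elane (chr10:79350902-79350961, plus strand).

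Not every member could be measured. Both Camp probes, Lcn2, S100a8, S100a9, Elane and Mpo A_55_P1995537 were well above background in both channels on all 20 arrays, and Hp was on 18 in green and on all 20 in red. Ltf was well above background on 11 of 20 arrays in green and 14 in red, and Ngp on 4 and 9. Mmp8 passed in neither channel on any array, and Mpo A_55_P2066505 passed once in green and never in red, so both give only a value near background. For Ngp at 8 days and Mpo A_55_P2066505 after acute stress, the stress side was not well above background on any array. The mean control signal was 1.09-fold the stress signal for Ngp (limma adjusted p = 0.991), although stress was higher in 2 of 3 pools. For Mpo A_55_P2066505 it was 1.1-fold (limma adjusted p = 0.856), with stress higher in 1 of 3 pools. Neither value sets a direction or a least size.

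Values below are log2 ratios of stress over control in a pool, and levels are normalized log2 signals of a channel, compared for a single probe only. S100a9, a calprotectin subunit, had the widest range of the members. After acute stress its log2 ratio was -3.87 in pool 1, 0.24 in pool 2 and 0.80 in pool 3. At 8 days it was -1.16, 1.13 and -0.77. At 13 days it was -0.21, 1.01 and -0.17, and in recovery it was 1.16, 2.04 and -2.45. Pool 2 was above 0 at every time point, and each time point had at least 1 pool on either side of 0. S100a8, its partner, gave -3.67, 0.03 and 0.58 after acute stress and -0.78, 0.88 and -0.77 at 8 days. It gave -0.10, 0.79 and -0.18 at 13 days and 1.18, 1.47 and -2.0 in recovery, with the same sign as S100a9 in all 12 pools.

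Camp encodes the antimicrobial peptide cathelicidin of secondary granules. Its probe A_55_P2039699 gave -3.37, -0.04 and 0.31 after acute stress, -0.37, 0.45 and -0.64 at 8 days, -0.18, 0.39 and -0.11 at 13 days and 0.77, 1.39 and -0.65 in recovery. The other Camp probe followed it with smaller values, from -2.73 in acute pool 1 to 0.95 in recovery pool 2. Ltf encodes lactoferrin, the iron-binding protein of the same granules. Its ratios were -2.12, 0.01 and 0.20 after acute stress, 0.11, 0.22 and -0.59 at 8 days, -0.16, 0.24 and -0.13 at 13 days and 0.21, 0.48 and -0.77 in recovery. Ngp, a secondary granule protein related to the cathelicidins, was lowest in acute pool 1 (-1.37) and highest in recovery pool 2 (0.49). Hp, haptoglobin, which binds free haemoglobin, gave -1.59, 0.06 and 0.04 after acute stress and lay between -0.22 and 0.36 in the other 9 pools. Lcn2, which binds bacterial siderophores, gave -0.94, 0.08 and -0.04 after acute stress and 0.06, 0.13 and 0.47 at 8 days. Its highest value, 0.99, was in 13-day pool 1, where the other 2 pools gave 0.14 and -0.08 and where S100a9 was below 0. Mmp8, the neutrophil collagenase, lay between -0.35 and 0.18 at a signal that did not pass the background test.

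Mpo, myeloperoxidase of the primary granules, read by A_55_P1995537, gave -2.08, -0.01 and 0.26 after acute stress, -0.16, 0.21 and -0.37 at 8 days, -0.16, 0.03 and -0.06 at 13 days and 0.48, 1.06 and -0.19 in recovery. The near-background probe A_55_P2066505 gave -0.33 and 0.13 in the pools in which its partner had its lowest and highest value. Elane, the gene of neutrophil elastase, a protease of the same granules, did not share this range, since its 12 ratios lay between -0.12 and 0.16 at a level well above background.

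**Figure D1:**
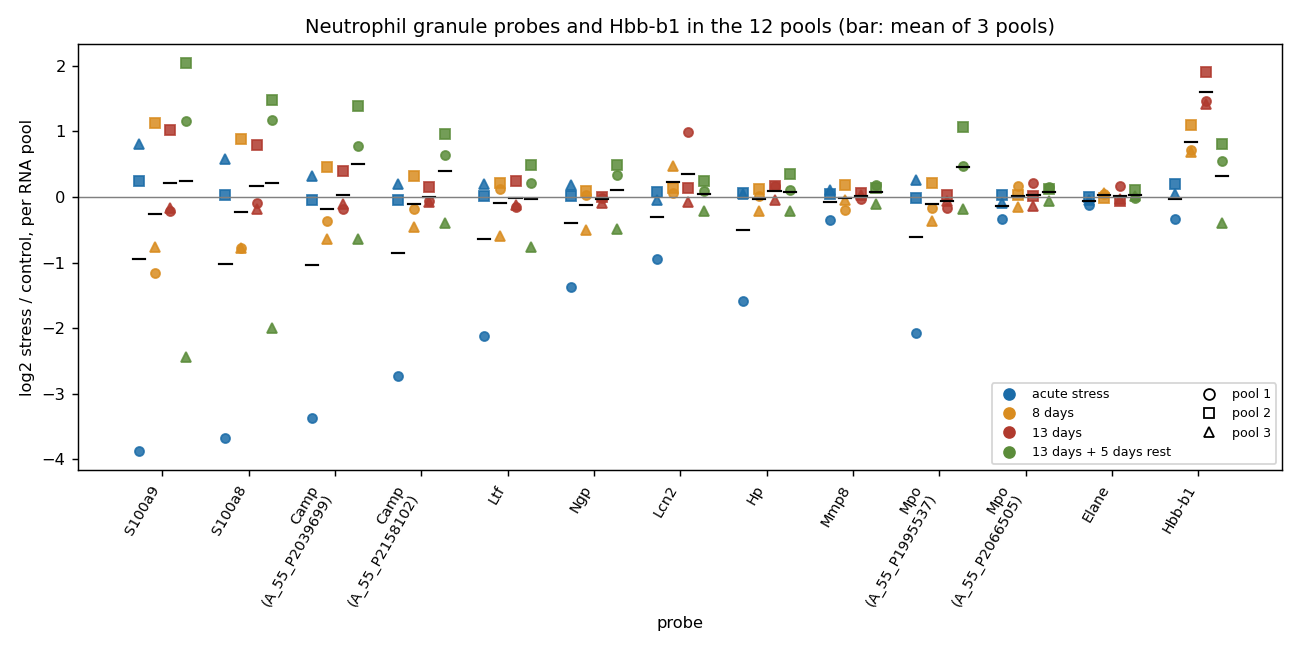
Log2 stress/control (vertical axis) is plotted for the 12 member probes and Hbb-b1 (horizontal axis) in the 12 pools, with colours for time points, symbols for pool numbers and a bar at the mean of 3 pools. Acute pool 1 sits at -3.87 for S100a9 and below all other pools for 12 of the 12 member probes, whereas Elane stays between -0.12 and 0.16.

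The pool that stood apart was acute pool 1. All 10 genes (brightest probe of each) were below 0 in it, with a median of -1.83, against a median of 0.01 over all probes. Of the 12 member probes, 8 were under -1, a limit that 74 of 39426 probes (0.188%) passed in that pool, and 9 were under -0.5, which 225 probes (0.571%) passed. Control over stress was 14.7-fold for S100a9, 12.7-fold for S100a8, 10.4-fold for Camp A_55_P2039699 and 4.23-fold for Mpo A_55_P1995537. These values rest on 1 array, with no dye swap analysed here, and none of its member spots was affected by the background correction, the ratios being identical without it.

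The control pool of this pair had the level that stood apart. Its S100a9 level was 12.74, whereas the other 11 control pools lay between 7.72 and 10.11. The level in the acute control pool 1 was the highest of the 12 control pools for 11 of the 12 member probes, all but Elane, with 10.78 for S100a8, 10.75 for Camp A_55_P2039699, 8.99 for Mpo A_55_P1995537, 8.31 for Ltf and 8.04 for Hp. The stress pool on the same array was neither the highest nor the lowest of the 12 stress pools for any member probe, with 8.87 for S100a9. In recovery, the stress pools differed among themselves. Stress pool 2 had the highest level of all stress pools for 7 probes and stress pool 1 for 3, whereas stress pool 3 had the lowest for 6. The S100a9 level was 10.80, 11.12 and 7.48 in the 3 recovery stress pools and 9.64, 9.08 and 9.93 in their control pools, so the control pools were closer together than the stress pools.

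**Figure D2:**
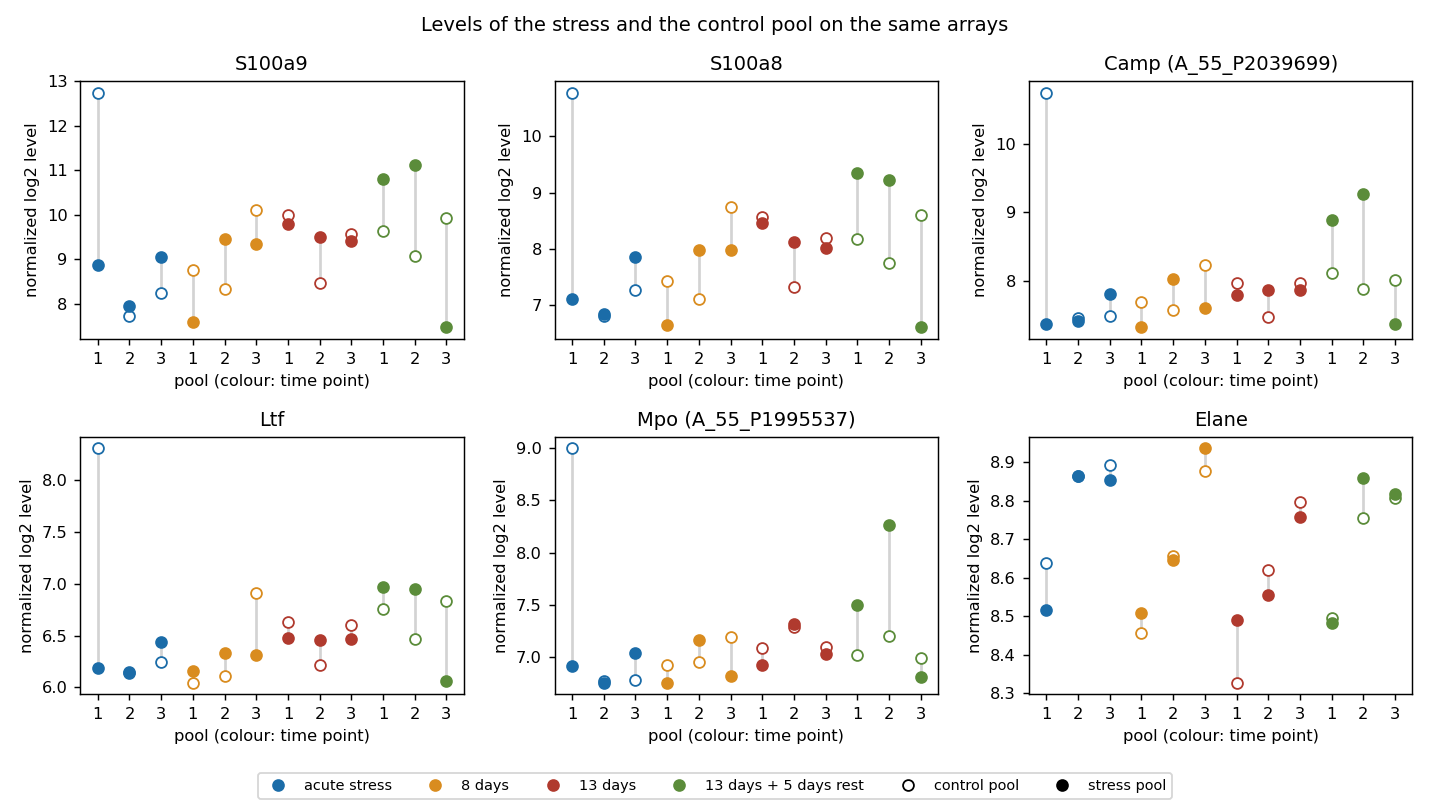
Normalized log2 levels (vertical axis) of 6 member probes in the control pool (open) and the stress pool (filled) of the same arrays are plotted for the 12 pool pairs (horizontal axis, colour by time point). The open symbol of acute pool 1 lies above the other 11 control pools in the panels of S100a9 (12.74), S100a8, Camp, Ltf and Mpo, but not of Elane.

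Other pools shared a direction over the genes as well. All 10 genes were above 0 in recovery pool 2, with a median of 0.48, and 4 member probes were over 1, which 8 of all probes (0.0203%) were. In recovery pool 3, 9 of 10 genes were below 0, with a median of -0.35, and 2 member probes were under -1 against 15 of all probes (0.038%). At 8 days, 9 genes were above 0 in pool 2 and 8 were below 0 in pool 3, in which 5 member probes were under -0.5 against 17 of all probes (0.0431%). At 13 days, 9 genes were below 0 in pool 3, but their median was -0.08.

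Averaged over 3 pools, no member passed the test at any time point. With limma, where a call needed a Benjamini-Hochberg p below 0.05 together with an absolute log2 ratio above 0.5, 0 of 12 member probes passed after acute stress, where 2 of 39429 probes (0.00507%) did. The counts were 0 of 12 at 8 days (0.00254% of all probes), 0 of 12 at 13 days (0.0279%) and 0 of 12 in recovery (0%). At an unadjusted p under 0.05, 1 member probe passed after acute stress (6.29% of all probes did) and 0 at 8 days (4.17%), 13 days (8.56%) and in recovery (4%). That probe was Hp, at -0.50 ± 0.23 (SE, n = 3 pools; limma adjusted p = 0.790). Every SE of a mean or difference given here is that of limma, from 1 spread estimate per probe shared by all pools of the fit. For a probe it is thus equal at each time point and is not the spread of the 3 pools named. The acute mean was -0.94 ± 0.84 for S100a9 (limma adjusted p = 0.919), -1.02 ± 0.72 for S100a8 (adjusted p = 0.891) and -1.03 ± 0.53 for Camp A_55_P2039699 (adjusted p = 0.822), each with SE and n = 3 pools. The SD of the 3 pools was 2.55 for S100a9, larger than its mean in size. The acute mean was below 0 for 12 of 12 probes, with a median of -0.55. Without pool 1 the sign turned for 10 of them, and the mean of pools 2 and 3 was 0.52 for S100a9, 0.31 for S100a8, 0.14 for Camp A_55_P2039699, 0.11 for Ltf and 0.05 for Hp.

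At 8 days the mean was below 0 for 9 of 12 probes, with adjusted p between 0.990 and 0.998 (limma, n = 3 pools). At 13 days it was above 0 for 9 probes, led by Lcn2 at 0.35 ± 0.19 (SE; limma adjusted p = 0.653), whose value rested on pool 1. In recovery it was above 0 for 11 probes, with 0.51 ± 0.53 for Camp A_55_P2039699 and 0.45 ± 0.33 for Mpo A_55_P1995537 (SE, limma adjusted p = 0.990 for both). S100a9 had a recovery mean of 0.25 ± 0.84 (SE), which was 1.60 without pool 3 and -0.64 without pool 2. A shared sign in all 3 pools was rare. Elane was below 0 in 3 of 3 pools after acute stress (14.2% of all probes were) and Ngp at 13 days (15.5%), the ratio farthest from 0 being -0.12, and Lcn2 was above 0 in 3 of 3 pools at 8 days (11.7%).

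The ratios were also compared between time points, in 6 contrasts of the same fit. No member probe differed at an adjusted p under 0.05, while 6 of all probes (0.0152%) differed between 13 days and acute stress, 1 (0.00254%) between recovery and acute stress and 0 (0%) in the other 4 contrasts. At an unadjusted p under 0.05, 3 of the 72 member tests in the 6 contrasts passed, and 4.04% of the tests of all probes did. The lowest p belonged to Lcn2, which was 0.65 ± 0.28 (SE) higher at 13 days than after acute stress (limma adjusted p = 0.809). For Mpo A_55_P1995537 recovery exceeded acute stress by 1.06 ± 0.46 (SE; limma adjusted p = 0.979). Without acute pool 1 these differences were 0.33 ± 0.24 for Lcn2 (limma adjusted p = 0.902) and 0.33 ± 0.27 for Mpo A_55_P1995537 (limma adjusted p = 1.0), and that of Lcn2 was likewise 0.33 without 13-day pool 1.

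The spread between pools was set against the dye swaps, which repeat the same RNA with the dyes exchanged. In the 8 pools with both arrays the SD between pools was 1.38 for S100a9 and the SD between the arrays of a pool was 0.256, a ratio of 5.39. The same ratio was 5.95 for S100a8, 6.57 for Camp A_55_P2039699, 3.49 for Ltf and 3.20 for Mpo A_55_P1995537. It was above 1 for 11 of the 12 member probes, and for 4100 of 39227 probes (10.5%) overall. Elane was the exception, with an SD of 0.056 between pools and 0.199 between arrays. The background correction, which was chosen after the data had been seen, entered here: without it the S100a9 ratio in recovery pool 3 was -0.21 on the original array and -2.11 on the swap, and with it -2.79 and -2.11. Without it the SD of S100a9 between pools was 0.880 and that between arrays 0.529. For S100a8 they were 0.608 and 0.542, and for Camp A_55_P2039699 0.367 and 0.304. Only these probes kept a larger SD between pools than between arrays. The order turned for the others that had it, with 0.194 and 0.207 for Ltf and 0.247 and 0.269 for Mpo A_55_P1995537. The larger spread between pools thus depended on the correction for most member probes. Without the correction, the background fit of the original array of recovery pool 3 had a noise SD of 6019 in red, against 3.34 with it. Its log2 ratios over all probes had an SD of 0.068 without the correction and 0.166 with it. The unprocessed S100a9 spot on that array read 267 for stress and 996 for control. The SDs without the correction therefore include ratios compressed toward 0.

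**Figure D3:**
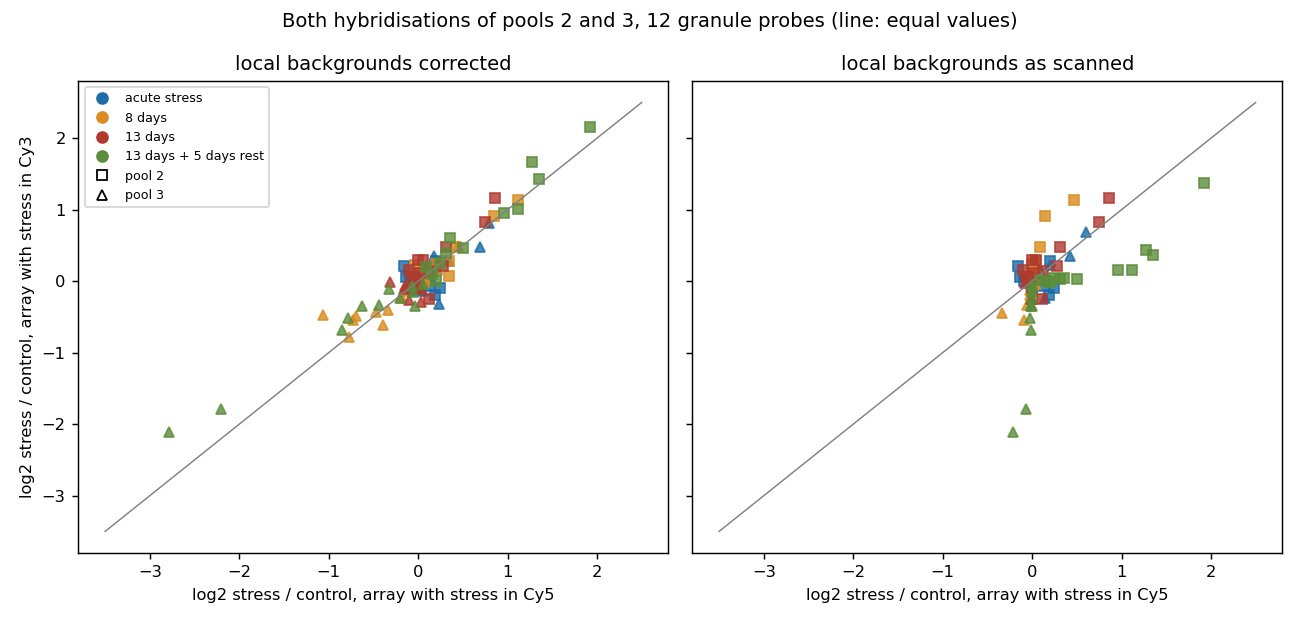
The log2 ratio of each member probe on the array with stress in Cy5 (horizontal axis) is plotted against that with stress in Cy3 (vertical axis) for pools 2 and 3, with backgrounds corrected (left) and as scanned (right), and the line marks equality. On the left the points of S100a9 reach from -2.79 and -2.11 in recovery pool 3 to 1.92 and 2.155 in recovery pool 2, and on the right several points leave the line.

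The genes moved together across pools. Between the brightest probes of the 10 genes all 45 Pearson correlations over the 12 pools were positive, from 0.19 to 0.99 with a median of 0.89, and 28 were over 0.8. Among all probes, r over 0.8 was reached by 0.335% with S100a9, 0.419% with S100a8, 0.662% with Camp, 0.617% with Ltf, 0.449% with Ngp, 0.672% with Hp, 0.842% with Mmp8, 0.556% with Mpo, 0.0939% with Lcn2 and 0.0507% with Elane. By permutation of the pools (100000 permutations, two-sided), 30 of 45 pairs had an unadjusted p under 0.05, and 10 reached 1e-05, the smallest value these permutations can give. The shares of all probes at these limits were not counted, so neither count can be set against them. Adjusted over all probes from the side of both genes, 0 pairs passed 0.05. This count is bounded by the smallest p. With 39415 probes adjusted together, a probe at 1e-05 passes only if several others tie with it. S100a8 and S100a9 were at that p and had permutation adjusted p of 0.066 and 0.079. The count therefore does not measure how closely the pairs were related. Camp with Ltf, Ngp, S100a8, S100a9 and Mpo passed from the side of Camp alone (permutation adjusted p = 0.0438), where 0.0228% of all probes passed. The closest pair was S100a8 and S100a9 (r = 0.99), followed by Camp and Mpo (0.99), Ltf and Ngp (0.98) and Camp and Ngp (0.97). Spearman's rho had a median of 0.82 over the pairs.

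Lcn2 and Elane had the lowest correlations, and Mmp8 was not well above background on any array. Among the other 7 genes, left over by these choices, the 21 pairs had a median r of 0.94 and a lowest of 0.85. Lcn2 and Elane correlated with each other (r = 0.84), and less with the rest, with r from 0.47 to 0.75 for Lcn2 and from 0.19 to 0.57 for Elane. The Elane ratios varied less between pools than between the arrays of a pool. Both arrays gave Elane the same sign in only 2 of 8 pools, which limits what its correlations can show. The size of r depended on a few pools. Without acute pool 1 and recovery pool 3, chosen after the data had been seen, the median over 45 pairs was 0.76, 32 were positive and the lowest was -0.42, whereas the 21 pairs among the 7 genes had a median of 0.83 and a lowest of 0.76. The r of S100a8 with S100a9 was 0.99 in these 10 pools. With the mean of each time point removed the median over 45 pairs was 0.88, in pools 2 and 3 alone it was 0.84 and with the pool number as a block it was 0.86.

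**Figure D4:**
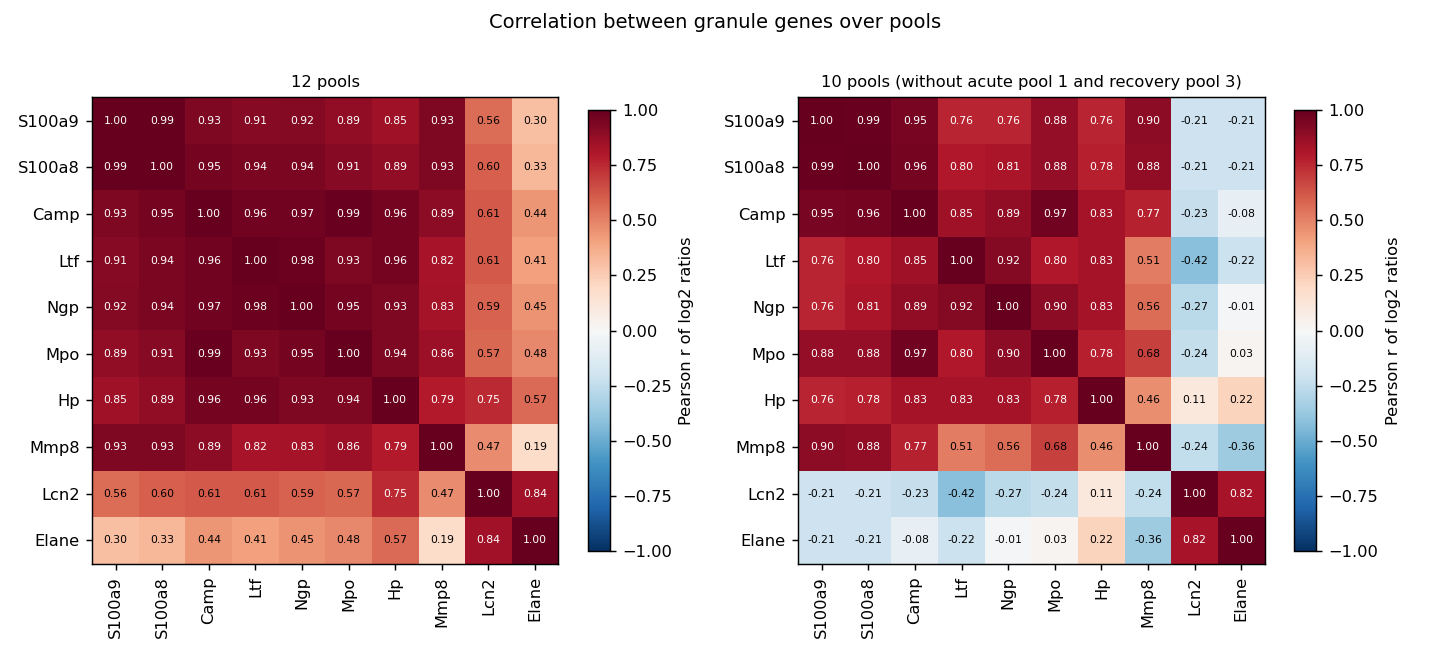
Pearson's r between the log2 ratios of the 10 genes (both axes) is shown by colour and number over 12 pools (left) and over 10 pools without acute pool 1 and recovery pool 3 (right). S100a9, S100a8, Camp, Ltf, Ngp and Mpo stay positively correlated on both sides, whereas Lcn2 falls to between -0.42 and 0.11 with all genes except Elane on the right.

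The paper describes hemoglobin in neurons as well as in red cells. It states that the source of the rise with stress, neurons or blood, is not known. Hbb-b1, a beta globin of red cells, was taken with this limit as a marker of blood in the slice. Its log2 ratio was -0.34, 0.20 and 0.05 after acute stress, 0.72, 1.09 and 0.68 at 8 days, 1.46, 1.91 and 1.42 at 13 days and 0.54, 0.80 and -0.40 in recovery. At 13 days it rose by 1.60 ± 0.18 (SE, n = 3 pools; limma adjusted p = 0.003), with all 3 pools above 1. The S100a9 mean at that time was 0.21 ± 0.84 (SE from all 12 pools), and the SD of its 3 pools was 0.69. The member ratios were positively correlated with Hbb-b1 for 12 of 12 probes, from r = 0.28 for Elane to 0.61 for Lcn2, with 0.56 for S100a9, where 49.2% of all probes had r above 0. By permutation test (100000 permutations, two-sided, 12 pools) the unadjusted p was under 0.05 for Lcn2 (p = 0.032), Hp (p = 0.044) and S100a8 (p = 0.049), 3 of 12 tested, against 5.73% of all probes. Adjusted over all probes, 0 of 12 passed (permutation adjusted p from 0.854 to 0.978), as did 0% of all probes. Spearman's rho was 0.41 for S100a9 (permutation p = 0.191), 0.64 for Lcn2 (permutation p = 0.029) and 0.66 for Hp (permutation p = 0.022). Without the 2 pools farthest from the median Hbb-b1 ratio, r lay between 0.38 and 0.70.

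With the mean of each time point removed, r with Hbb-b1 was higher than over the 12 pools as measured for 10 of 12 probes and lower for Lcn2 and Elane. It was 0.90 for S100a9 (exact permutation p = 0.0062), 0.87 for S100a8, 0.76 for Camp A_55_P2039699, 0.37 for Lcn2 and 0.09 for Elane. The unadjusted p was under 0.05 for 9 of 12 probes against 6.28% of all probes, and the adjusted p was 0.772 at the lowest (exact, 1296 permutations within time points). The smallest p these permutations can give is 0.00077. An adjusted p under 0.05 was thus out of reach unless very many probes tied there, so the adjusted p decides nothing here. Without acute pool 1 this r was 0.96 for S100a9 (exact permutation p = 0.0185, 432 permutations). Without recovery pool 3 as well it was 0.86 (exact permutation p = 0.0556, 144 permutations, of which the smallest possible p is 0.0069), with 0.83 for Camp A_55_P2039699 and -0.19 for Lcn2. Both exclusions were chosen after the data had been seen. These were the pools with a negative Hbb-b1 ratio and the lowest S100a9 ratios, and the correlation over pools as measured depended on them. Over the 11 pools without acute pool 1, r without removal of time-point means was 0.39 for S100a9 (permutation p = 0.236) and the median over the 12 probes was 0.21. Without both pools the 12 values of this kind lay between -0.20 and 0.31 with a median of -0.02, and 5 were positive. In pools 2 and 3 alone they lay between -0.29 and 0.54, and with the pool number as a block they had a median of 0.42.

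**Figure D5:**
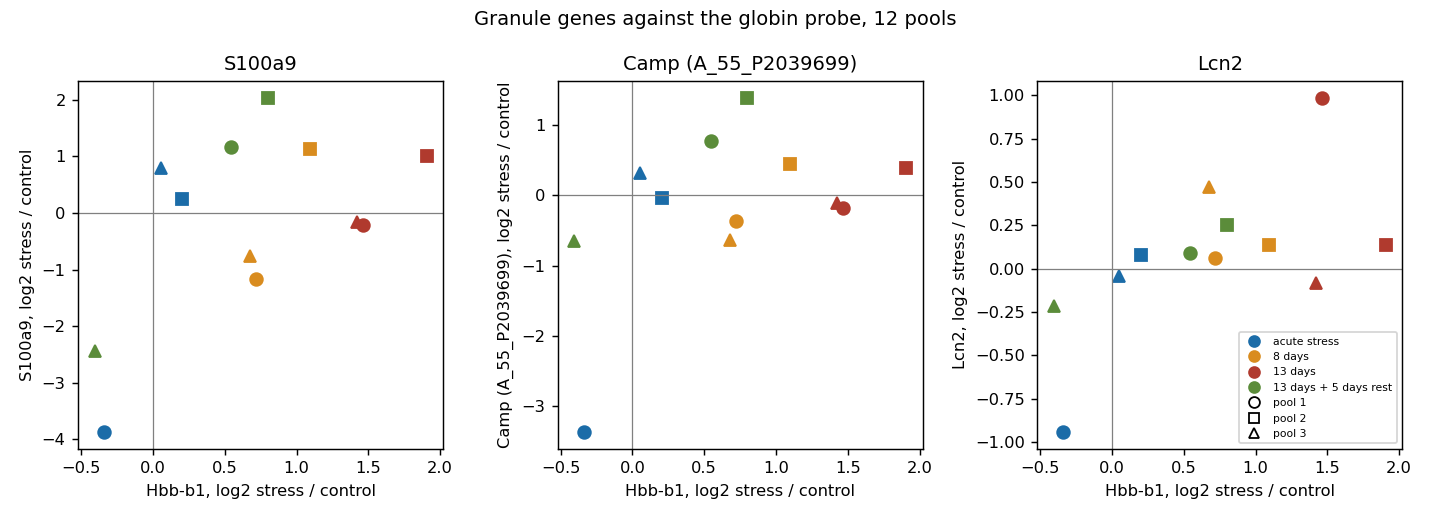
The log2 ratios of S100a9, Camp and Lcn2 (vertical axes) are plotted against that of Hbb-b1 (horizontal axes) in the 12 pools, with colours for time points and symbols for pool numbers. The 13-day pools have the highest Hbb-b1 ratios (1.42 to 1.91) with S100a9 between -0.21 and 1.01, and the pools with negative Hbb-b1, acute pool 1 and recovery pool 3, have the lowest S100a9 values.

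Other neutrophil genes were read from lists, members left out, and gave no calls. Of 8 further primary granule genes, 15 secondary and tertiary granule genes, 10 cytosolic proteins, 15 surface receptors and 5 granulocyte transcription factors on the array, none passed the limma test at any time point in either direction. In acute pool 1, 4 of the 15 secondary and tertiary granule genes were under -0.5, with Chi3l3, a chitinase-like protein, at -2.0, Retnlg at -1.36, Slpi, a protease inhibitor, at -0.77 and Anxa1 at -0.62, and the median of the list was -0.16. Of the primary granule genes, Ctsg, the cathepsin G gene, was at -0.78 and the list median was -0.21, with Lyz1 at -0.25 and Cd63 at -0.23. The surface receptors had a median of -0.02 in that pool and none under -0.5. Ly6g, the surface antigen by which mouse neutrophils are identified, was at -0.09 and Fcgr3 at -0.02, both well above background on all 20 arrays. The cytosolic proteins had a median of -0.01 and none under -0.5, with S100a11 at 0.01 and Alox5ap at 0.03. Cebpe, a transcription factor of secondary granule genes, was at -0.61, but was not well above background in both channels on any array, whereas Cebpd was at -0.26 and Cebpb at -0.33. None of the 11 chemoattractants and growth factors of neutrophils was well above background in both channels on all arrays. Of the 9 receptors and partners of the member proteins none was called, with Cp at -0.21 and Lrp1 at 0.19 in acute pool 1.

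Markers of other cells were given the same reading. The 6 red cell genes were all called higher at 13 days (median 1.41) and at no other time point. In acute pool 1 their median was -0.25 and none was under -0.5. In recovery it was 0.64 in pool 2, with 6 of 6 over 0.5, and -0.43 in pool 3. Of the 8 meningeal fibroblast genes, Mgp was called higher at 8 days (0.74) and 13 days (0.88), and in acute pool 1 Col1a1 was at -2.06, Col1a2 at -0.82 and the list median at -0.12. Of the 8 platelet genes, Pf4 was at -0.81 and Gp1bb at 0.07 in that pool, 2 were under -0.5 and the list median was -0.18. Medians in acute pool 1 were -0.16 for 7 monocyte genes, 0.02 for 8 B and T cell genes, 0.15 for 9 microglia genes, -0.01 for 6 choroid plexus genes, -0.06 for 8 reactive astrocyte genes and 0.13 for 8 neuron genes, and none of these lists had a call. Apart from the red cell genes and Mgp, no gene of these lists was called. The part that any of these cells had in the member values was not tested.

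The genes outside the 10 whose 12 ratios were most like those of a member were named by rank of r among 19875 probes that were well above background on all arrays, each from the same 12 pools, so acute pool 1 weighs heavily. This was done for the 7 members that were well above background on all arrays in either channel, which leaves out Ltf, Ngp and Mmp8, and some members were closer to each other than to any gene named here. For Camp they were Rrm2 (0.96), a subunit of ribonucleotide reductase, Chi3l3 (0.95) and the proliferation marker Mki67 (0.95). For Mpo they were Mki67 (0.96), Rrm2 (0.95) and Hist2h2aa2 (0.94), a histone gene. For S100a9 they were Chi3l3 (0.93), Ncf4 (0.91), a subunit of the phagocyte oxidase, and Rrm2 (0.90), and the same names stood for S100a8 with 0.95, 0.91 and 0.92. In acute pool 1 Mki67 was at -0.93 and Rrm2 at -0.60, and in recovery pool 2 they were at 0.62 and 0.35. Without acute pool 1 the r of Camp was 0.89 with Rrm2, 0.83 with Chi3l3 and 0.88 with Mki67. For Hp, Slc16a3 (0.96), Acp5 (0.96) and Muc5b (0.95) ranked first, and these fell to 0.57, 0.41 and 0.29 without acute pool 1, in which Acp5, a phosphatase of osteoclasts, was at -2.14 and Muc5b, a mucin, at -1.72. Lcn2 ranked with Rps9 (0.91), D430022A14Rik (0.86) and 1190007F08Rik (0.84), and Elane with Tuba1c (0.85), 2210404J11Rik (0.84) and Aldh8a1 (0.83). The limit given above for the Elane ratios holds for its ranking too.

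Sequence upstream of the genes was read from RefSeq promoters, 250 bases before the start, for 9 of the 10 members. Granule genes are known to be controlled by C/EBP factors, and the letters TTGCNNAA (both strands) stood in 5 of 9 windows, those of Ltf, Ngp, Lcn2, Mmp8 and S100a9, against 9.56% of 32851 promoters of that length. GAGGAA (both strands), which is part of the site of the myeloid factor PU.1, stood in 6 of 9 against 23.3%. TATAAA stood in the window of S100a8 alone, against 12.4% of all promoters. A match describes letters and not a bound site. The windows of Ngp (chr9:110419558-110419807, plus strand), S100a8 (chr3:90668821-90669070, plus strand) and S100a9 (chr3:90695722-90695971, minus strand) in GRCm38.p6 are shown, the first since it held the C/EBP letters at 2 places and the others since these genes had the highest correlation with different letters upstream. Capitals mark the matches.
Ngp: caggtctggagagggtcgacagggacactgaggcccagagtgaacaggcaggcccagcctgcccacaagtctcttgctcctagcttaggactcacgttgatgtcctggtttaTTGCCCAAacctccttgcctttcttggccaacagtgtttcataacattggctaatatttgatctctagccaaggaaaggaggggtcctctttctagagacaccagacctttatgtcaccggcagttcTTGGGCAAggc
S100a8: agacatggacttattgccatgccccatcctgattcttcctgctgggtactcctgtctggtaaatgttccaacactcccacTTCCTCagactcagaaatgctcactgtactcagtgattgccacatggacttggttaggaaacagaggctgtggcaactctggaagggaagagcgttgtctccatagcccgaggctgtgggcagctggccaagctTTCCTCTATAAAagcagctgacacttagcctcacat
S100a9: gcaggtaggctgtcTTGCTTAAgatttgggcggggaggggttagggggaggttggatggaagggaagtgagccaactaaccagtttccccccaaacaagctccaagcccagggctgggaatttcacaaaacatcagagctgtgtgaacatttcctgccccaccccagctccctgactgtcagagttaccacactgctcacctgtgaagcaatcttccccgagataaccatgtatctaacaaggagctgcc
The Elane window held GAGGAA once and no TTGCNNAA, and that of Camp, whose ratios reached from -3.37 to 1.39, held none of the 3 strings.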

How the data were processed

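The scanner tables deposited by the authors hold mean spot intensities and median local backgrounds of both channels, read with Agilent Feature Extraction 10.10.1.1 (protocol GE2_1010_Sep10) and not normalized. The same deposited tables give red/green as a log10 ratio, background-subtracted and dye-normalized by that program, and marks for outlier spots and spots well above background, 70.5% to 74.4% of an array. The authors' value table holds log2 ratios of stress over control, with array medians of -0.024 to 0.028 and swaps already turned. Its background setting is not stated, and over probes it correlated with ratios made here at an offset of 0 without any correction at r of at least 0.913. With the background correction described below, r at this offset was as low as 0.145 on an array, with a median of 0.999.

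R 4.3.3 was used with the packages limma 3.58.1 and statmod 1.5.0. Some local backgrounds reached 634420, which upset the normexp fit, so backgrounds over 3 times the median of the array and channel were set to that median. This concerned 226 spots on 12 of 20 arrays and was chosen after the data had been seen. Normexp (offset 50), loess and Aquantile followed, outlier spots (0.314% to 0.730%) and control spots were left out, spots of a probe were averaged, and each swap was given the orientation of its original array before both were averaged. limma then fitted a coefficient per time point to 12 pools (prior degrees of freedom 5.28), and p-values of 39429 probes were adjusted together (Benjamini-Hochberg). Calls needed an adjusted p below 0.05 as well as an absolute log2 ratio above 0.5. Correlations and permutations used Python 3.11.15 with numpy 2.4.6 and numba 0.67.0. The scripts were tested on simulated data. The number of arrays limits the precision.

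The pools came from separate mice. The members and gene lists were chosen with earlier results of these data known. For some lists the text names no gene and gives the list as a whole. Where it names genes, these are the called probes of a list. Without calls they are the 2 genes with the largest log2 ratio in size at any time point among those well above background on all arrays. Others named were chosen after their values were seen. The Hbb-b1 accession is named Hbb-bt in the RefSeq table. The alternatives were other offsets, normalizations, models, tables, background limits and sets of pools.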

Additional observations from a re-analysis of the deposited data

How the results depend on the processing

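The count of member probes called stayed at 0 at each of the 4 time points under all 26 alternatives fitted, which gave 1240 member values with 78 changes of sign among uncalled means and a lowest adjusted p of 0.445. That value came from the fit with the pool number as a replicate block, in which 0 member probes were called at any time point, 0 differed between time points, 0 correlated with Hbb-b1 and 0 of 45 pairs passed. For the 2 correlation counts, permutations within pool numbers were too few for an adjusted p under 0.05 unless many probes tied at the smallest p. Those counts therefore decide little. The pool numbers mark the slide. Same-numbered pools of different time points correlated in their deviations at -0.09 to 0.46 (18 pairs, median 0.23). Differently numbered ones did so at -0.47 to 0.43 (36 pairs, median -0.11). Deviations were taken from the mean of each time point, which ties the lower median to the higher, so they are not independent. The main fit held no term for this pairing, whereas the replicate block did. Differences between time points and correlations with Hbb-b1 stayed at 0 calls under every alternative run on them. Of the 45 pairs of genes, 0 to 5 passed when single pools were left out, 5 without recovery pool 2 and 1 each without 8-day pool 1 and recovery pool 3, while 0 passed under the other alternatives. The pair counts are bounded by the smallest permutation p of each setting, so they do not show whether the correlations held. Leaving out acute pool 1 turned the sign of 10 acute means, and the authors' value table turned 5 of 48 means. With local backgrounds as scanned, 4 means turned sign, and limits of 2 and 5 times the median turned 0. Signal over background limits what can be said of Mmp8 and Mpo A_55_P2066505, and in part of Ngp and Ltf.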
